A study of Mus musculus with 9 samples.

Results

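Usp22-KOA and Usp22-KOB, called KOA and KOB below, are both labelled as Usp22 knockouts of 1 mouse pancreatic tumor cell line, 6419c5. The question here is how far the tumors of these knockouts differ from each other in gene expression. The deposited table gives transcript abundance as TPM, a unit scaled for gene length and library total, for 24493 genes. The 13623 genes that averaged 1 TPM or more across the 6 knockout samples were compared, and the other 10870 were not. Each of 3 genotypes, KOA, KOB and wild type (WT), had 3 samples of late-stage tumor cells from implanted subcutaneous tumors, strain C57BL/6, with polyA RNA sequenced. The WT samples carry no Usp22 knockout and serve as the background level. All 9 samples share the cell line and the implantation. The labels leave unsaid what A and B mean, whether each knockout is 1 clone, whether samples of a group came from separate mice, and how tumor cells were separated from host cells. The p-values therefore reflect the spread among these samples alone, and that spread may be technical.

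Usp22 is a deubiquitinase, an enzyme that removes ubiquitin from proteins. It works in the deubiquitinase module of SAGA, a large co-activator complex that also carries a histone acetyltransferase and acts on chromatin at many genes. Pancreatic ductal tumors are epithelial, grow in a dense collagen-rich stroma and hold fibroblasts, vessel cells and leukocytes of the host, so RNA from an implanted tumor can come from several cell types.

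The knockouts differed widely. Genes were tested with limma on log2(TPM + 1), and those with a Benjamini-Hochberg adjusted p under 0.05 are said to be called. Between KOA and KOB, 7085 genes were called (52.0%). Of these, 3835 were higher in KOA (28.2%) and 3250 higher in KOB (23.9%). A log2 difference is KOA minus KOB throughout, and values set against WT name it. The log2(TPM + 1) scale understates the change of low genes. Called genes at least 2-fold apart numbered 642 higher in KOA (4.71%) and 1002 higher in KOB (7.36%), and 192 and 274 were at least 4-fold apart. The 3 values of KOA lay above the 3 of KOB for 4343 genes (31.9%), and the reverse held for 3626 (26.6%). The median log2 difference over all genes tested was 0.03 and the median standard error 0.11. Across genes, log2(TPM + 1) correlated at 0.974 to 0.984 between KOA samples, 0.971 to 0.983 between KOB samples and 0.892 to 0.921 between a KOA and a KOB sample. Genes are not independent replicates.

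**Figure D1:**
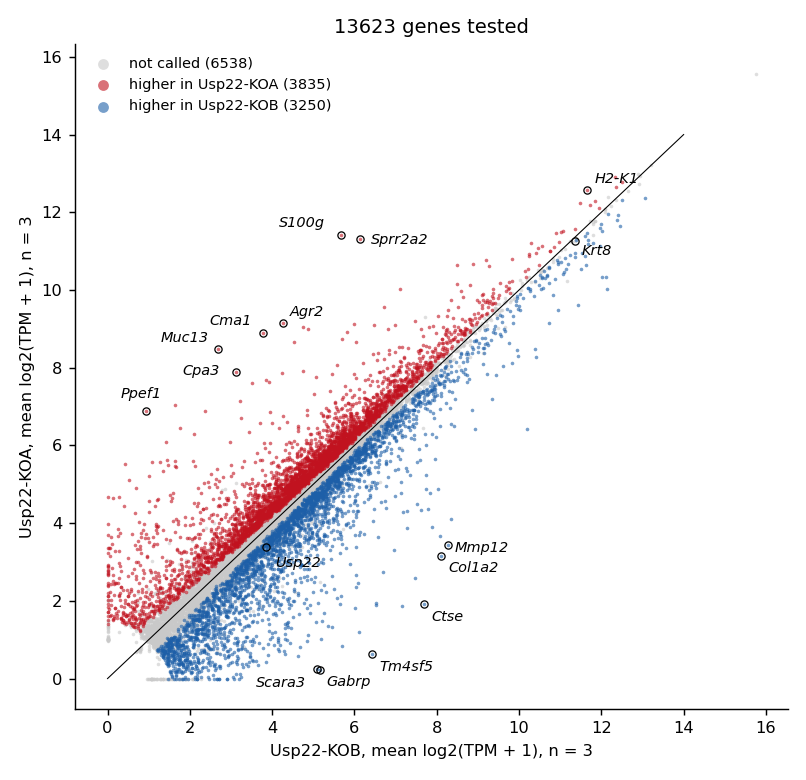
Mean log2(TPM + 1) of each of the 13623 genes in KOB (horizontal) and KOA (vertical), n = 3 each; red and blue points are called higher in KOA (3835) and in KOB (3250), grey points are not called (6538). Ppef1, Muc13 and S100g lie far above the line of equal level, Ctse, Tm4sf5 and Col1a2 far below it, and Krt8 lies on it.

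TPM keeps no depth, so the read depth behind each value is unknown; every knockout sample had 13037 to 13540 genes at 1 TPM or more, and Mir6236 took the largest share of each (4.60% to 6.13%). The labelled tumor cells are epithelial. Krt8, an intermediate filament of simple epithelia, was at 2611, 2355 and 2455 TPM in KOA, 2425, 2477 and 3001 TPM in KOB and 2585, 2379 and 2520.2 TPM in WT. Its difference of -0.09 ± 0.08 (SE, adjusted p = 0.415) was not called, with a 95% interval of -0.27 to 0.10. The epithelial adhesion molecule Epcam was at 33.9, 24.7 and 54.4 TPM in KOA, 25.4, 32.6 and 35.8 TPM in KOB and 399.6, 373 and 364 TPM in WT, so both knockouts lay far below WT and their values overlapped. The pan-leukocyte marker Ptprc was detected in all 6 knockout samples, at 28.4, 22.7 and 14 TPM in KOA against 44.3, 42.4 and 20.9 TPM in KOB.

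Usp22 itself (chr11:61151785-61175055, minus strand, mm10) was low in both knockouts, at 9.77, 8.46 and 10.1 TPM in KOA, 11.8, 14.9 and 14.1 TPM in KOB and 55.1, 54.5 and 56.4 TPM in WT. The 3 KOA values lay below the 3 of KOB. Usp22 differed by -0.48 ± 0.10 (SE, adjusted p = 0.00284), and the groups stood at 17.1% and 24.5% of the WT mean. Permuting the 6 samples exactly and two-sided gave p = 0.1, the smallest value this design can reach. Of the 8 tested genes of the deubiquitinase module, Usp22 and the adaptor Eny2 were called, both higher in KOB. Over all genes tested, 28.2% were higher in KOA and 23.9% higher in KOB. Eny2 was at 22.7, 25.1 and 23.6 TPM in KOA against 29.1, 27.3 and 33.4 TPM in KOB (log2 difference -0.32, adjusted p = 0.0124). It lies in 1 of the chromosome stretches higher in KOB described below, where 58.3% of all genes were higher in KOB. In the core and acetyltransferase part of SAGA, 3 of 17 were higher in KOA and 1 higher in KOB (median log2 difference 0.04). With quantile normalization the median was -0.01. The acetyltransferase Kat2b had the largest of these differences (0.73), at 35.8, 36.2 and 43.5 TPM in KOA against 21.1, 22.8 and 24.2 TPM in KOB. Its paralog Kat2a was at 31.7, 27.7 and 28.5 TPM in KOA against 28.9, 27.8 and 30.4 TPM in KOB, with a 95% interval of the difference of -0.15 to 0.17.

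Neighbouring genes differed together over long stretches of chromosomes. Gene positions came from GENCODE M21, on the mm10 build (GRCm38), for 13403 of the 13623 genes. On chromosome 1, 57.3% of 794 genes were higher in KOB and 7.05% higher in KOA, with a median log2 difference of -0.36. On chromosome 19 these were 56.3% and 5.06% of 474 genes (median -0.34), and on chromosome 15 they were 50.9% and 11.7% of 529 genes (median -0.30). Among chromosomes with more than 1 tested gene, 16 and X had the highest medians (both 0.24). Chromosome 13 was even, with 18.6% of its genes higher in KOA and 19.4% higher in KOB. Chromosomes 1, 15 and 19 held 13.4% of the genes placed, 30.9% of the calls higher in KOB (991 of 3210) and 3.76% of those higher in KOA.

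Within a chromosome the differences came in steps. Over 256 consecutive windows of 50 tested genes, window medians ran from -0.52 on chromosome 19 to 0.75 on chromosome X, and the middle 90% lay between -0.39 and 0.35. A run was taken, after these values were seen, as at least 2 consecutive windows whose medians were all 0.25 or more from 0 in the same direction. There were 14 such runs, 4 higher in KOA and 10 higher in KOB, with 3130 genes or 23.4% of those placed. The values chose the runs, so the counts in them are a description.

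The steepest run was the distal part of chromosome X, chrX:93764607-170005736, from Pdk3 onward (197 genes, 138 higher in KOA and 19 higher in KOB, median log2 difference 0.65). Set against the WT mean of each gene, the median of this run was 0.63, 0.72 and 0.74 in the KOA samples and -0.03, 0.02 and 0.07 in the KOB samples. The 4 windows before it on the same chromosome had medians near 0, so the step lay within the chromosome. A run on chromosome 5, chr5:33983433-121660514, held 400 genes, 244 higher in KOA and 47 higher in KOB, median log2 difference 0.41. Here the samples stood at 0.20, 0.20 and 0.27 in the KOA samples and -0.26, -0.21 and -0.13 in the KOB samples against WT, so the knockouts lay on opposite sides of WT.

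The proximal part of chromosome 2, chr2:16356304-49551948, was higher in KOA (250 genes, 152 higher in KOA and 29 higher in KOB, median log2 difference 0.37), with sample medians of 0.38, 0.39 and 0.39 in the KOA samples and -0.01, 0.02 and 0.11 in the KOB samples against WT. Distal chromosome 16, chr16:36041190-98082450, went the same way (182 genes, 95 higher in KOA and 20 higher in KOB, median log2 difference 0.29). In the other direction, nearly the whole of chromosome 1, chr1:25276404-195131586, formed 1 run of 14 of its 15 windows (744 genes, 51 higher in KOA and 433 higher in KOB, median log2 difference -0.37). Its sample medians against WT were -0.32, -0.32 and -0.32 in the KOA samples and -0.03, 0.03 and 0.12 in the KOB samples, so the KOA samples stood apart and the KOB samples lay near WT. Chromosome 19 had 2 runs, chr19:3259076-23448442 and chr19:34473778-61228429, with medians of -0.38 and -0.30.

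Chromosome 15 had 3 runs higher in KOB with medians of -0.31 to -0.36, and the distal windows of chromosome 18 formed a run with a median of -0.42. Chromosome 7 alternated. Its 3 runs, chr7:17004640-30552299, chr7:80293229-100540369 and chr7:131338220-145284011, had medians of -0.38, -0.43 and -0.36. Against WT, all 20 windows of chromosome 7 were lower in KOA, from -0.16 to -0.49. In KOB the 8 windows of the runs lay between -0.13 and 0.15 against the same WT samples, and the other 12 lay between -0.19 and -0.42. The knockouts thus differed on chromosome 7 where KOB stood near WT, and lay close to each other where both stood below it. In all 14 runs the 3 sample medians of one knockout lay apart from the 3 of the other. The same samples chose the runs, so this separation is a description too. Chromosome 3 held no run, and both knockouts lay below WT there, with medians of -0.18 for KOA and -0.31 for KOB against the same WT samples. With only genes of at least 10 TPM, an alternative chosen after the data were seen, the medians were -0.35 on chromosome 1, -0.27 on 15, -0.35 on 19 and 0.29 on X. What underlies these runs was not tested.

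**Figure D2:**
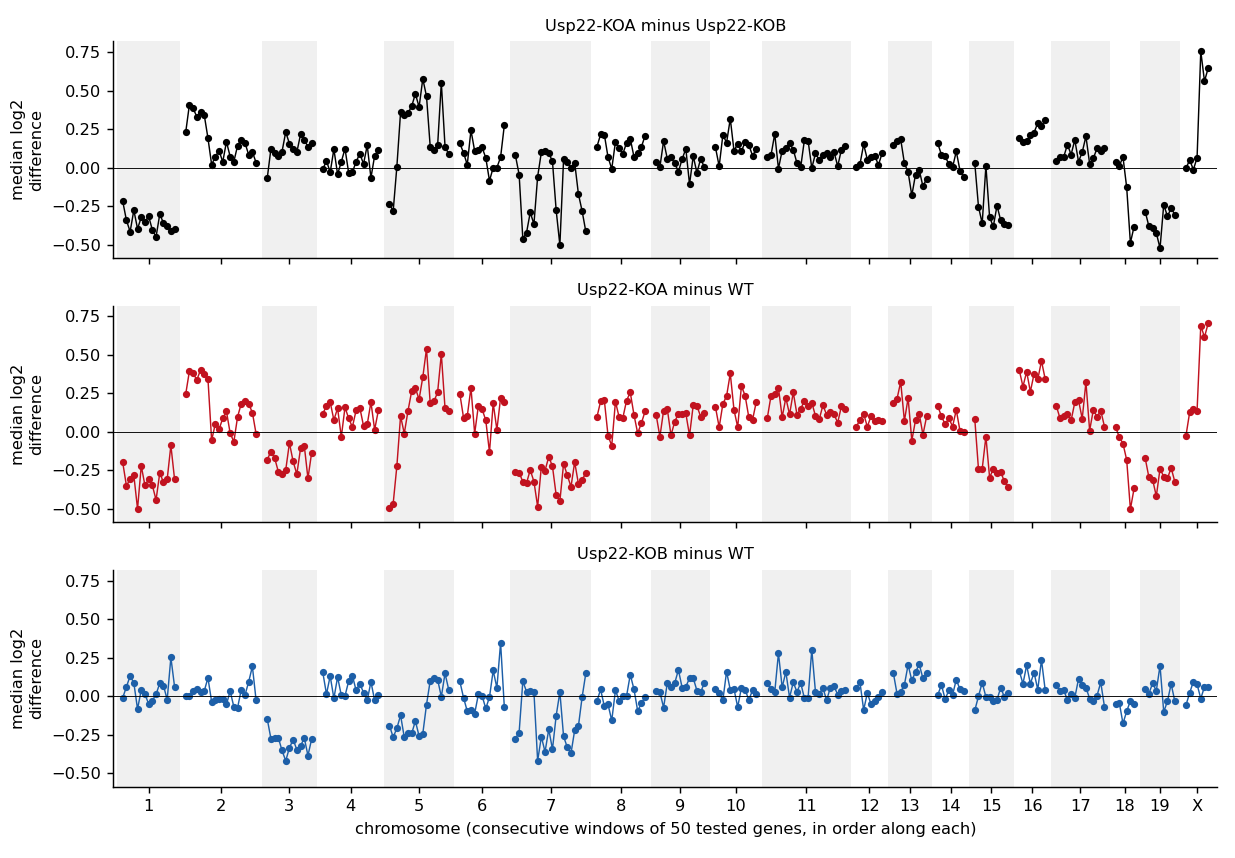
Median log2 difference in consecutive windows of 50 tested genes (points, in order along each chromosome) for KOA minus KOB (top), KOA minus WT (middle) and KOB minus WT (bottom); the last 2 panels share the 3 WT samples. All windows of chromosomes 1 and 19 and 8 of the 10 of chromosome 15 sit below 0 and the last 3 windows of X rise to between 0.56 and 0.75 in the top panel, while in the bottom panel these same chromosomes lie near 0 and chromosome 3 lies below it.

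Housekeeping gene families differed by run. Their own values helped to choose the runs, so these counts are a description too. Among 43 tested nuclear genes of oxidative phosphorylation, which encode subunits of the mitochondrial respiratory chain and ATP synthase, 14 were higher in KOA and 14 in KOB. All 14 of the latter lay in runs higher in KOB, where 14 members were placed, and none of the 25 members outside runs was called higher in KOB. Over all genes placed, 58.3% of the 2101 in these runs and 18.2% of the 10273 outside any run were higher in KOB. The complex IV subunit Cox5b on chromosome 1, at 404, 378 and 379 TPM in KOA against 577, 569 and 569 TPM in KOB, differed by -0.56. The ATP synthase subunit Atp5j on chromosome 16, at 654, 662 and 691 TPM in KOA against 463, 458 and 506 TPM in KOB, differed by 0.49. The values of neither gene overlapped between the knockouts, and they differed in opposite directions.

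Of 60 cytosolic ribosomal protein genes, 6 were higher in KOA and 31 higher in KOB, with a median of -0.15. All 10 members in runs higher in KOB were called higher there, and the 6 called higher in KOA were all among the 8 members in runs of that direction, where 61.1% of all 1029 genes were higher in KOA. Rplp2 (chr7:141447370-141451585, plus strand), a stalk protein of the large subunit, was at 3103, 3272 and 3294 TPM in KOA, 5971, 5408 and 5431 TPM in KOB and 5259, 5293 and 6012 TPM in WT. Rps16 (chr7:28350652-28353155, plus strand), of the small subunit, was at 1893, 1863 and 1841 TPM in KOA against 3172, 2976 and 3164 TPM in KOB. Both were lower in every KOA sample than in every KOB sample, with differences of -0.80 ± 0.06 (SE, adjusted p = 1.6e-05) and -0.73 ± 0.05 (SE, adjusted p = 4.66e-06). Rps4x (chrX:102184941-102189394, minus strand), the X-linked small-subunit gene, was higher in KOA, at 1926, 2013 and 1913 TPM in KOA, 1249, 1209 and 1167 TPM in KOB and 1032, 1073 and 1083 TPM in WT. Rps4x differed by 0.69 ± 0.04 (SE, adjusted p = 3.74e-06). Outside the runs, 20 of 42 members were higher in KOB and none higher in KOA, with a median of -0.14. Ribosomal protein genes have many processed pseudogenes, so reads shared between copies make single values uncertain.

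Of 35 MYC targets and ribosome biogenesis genes, 15 were called, all higher in KOB, and 8 of these 15 were the 8 members in its runs (median -0.62, against -0.03 for the 27 outside). Myc, the growth-promoting transcription factor, on chromosome 15 (chr15:61985391-61990374, plus strand), was at 32.8, 31.2 and 29.6 TPM in KOA, 54.9, 56.9 and 65.8 TPM in KOB and 53.3, 45 and 44.9 TPM in WT and differed by -0.90 ± 0.09 (SE, adjusted p = 6.03e-05). The nucleolar protein Ncl on chromosome 1 was at 56.1, 58.1 and 52.9 TPM in KOA against 93.7, 97.2 and 107 TPM in KOB. Without replicate 3 of both knockouts the list had 1 higher in KOA and 8 higher in KOB. Some other lists lay mostly outside the runs: none of the 22 placed genes of MHC class I presentation and 3 of 28 proteasome genes were in one. Others did not: of 16 CXC and CX3C chemokines, 11 lay in runs higher in KOA and 1 in a run higher in KOB.

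The largest differences toward KOA included a calcium-binding protein, a mucin, a barrier protein and a phosphatase. S100g (chrX:162961992-162964599, minus strand), a calcium-binding protein of intestinal epithelium, was at 2636, 2638 and 2989.6 TPM in KOA, 38.5, 57.5 and 55.1 TPM in KOB and 62.7, 56.4 and 76 TPM in WT. All 3 KOA values lay far above the rest, and the difference was 5.76 ± 0.16 (SE, adjusted p = 9.57e-08), against a median of 0.65 for the run of chromosome X that holds it. Muc13 (chr16:33794037-33819934, plus strand), a transmembrane mucin, was at 359, 309.7 and 398 TPM in KOA, 5.27, 5.83 and 5.25 TPM in KOB and 55.3, 31.5 and 41 TPM in WT. WT lay between the knockouts, and the difference between them was 5.78 ± 0.18 (SE, adjusted p = 1.31e-07). Sprr2a2 (chr3:92215920-92256724, plus strand), a small proline-rich protein of epithelial barriers, was at 2754, 2537 and 2380.3 TPM in KOA, 62.6, 67.6 and 79.2 TPM in KOB and 223, 209.9 and 196 TPM in WT. Sprr2a2 differed by 5.18 ± 0.09 (SE, adjusted p = 1.42e-08); it belongs to a family of near-identical copies, so its level is uncertain.

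Agr2 (chr12:35992907-36004087, plus strand), an endoplasmic reticulum protein needed for mucin folding, was at 538, 463 and 719 TPM in KOA, 27, 14.6 and 14.9 TPM in KOB and 491, 534 and 337 TPM in WT. Here KOA lay at the WT level and KOB far below it. Agr2 differed by 4.89 ± 0.26 (SE, adjusted p = 1.69e-06). Ppef1 (chrX:160623094-160735765, minus strand), a protein phosphatase, was at 108, 119 and 125 TPM in KOA, 0.358, 0.819 and 1.77 TPM in KOB and 0.603, 0.359 and 0.0923 TPM in WT. Ppef1 had the largest difference toward KOA of all genes called, 5.96 ± 0.24 (SE, adjusted p = 3.85e-07). Serpina7, the thyroxine-binding globulin, had a mean of 117 ± 14.1 TPM in KOA and 4.34 ± 1.62 TPM in KOB (SD, n = 3 each). The mean of the small heat shock protein Hspb8 was 66.9 TPM in KOA against 1.71 in KOB. The trypsin gene Prss2 had means of 47.4 and 1.16 TPM in the same order, and the bile acid transporter subunit Slc51b 39.9 and 1.03.

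The largest differences toward KOB included gastric proteases, a receptor subunit and matrix genes. Ctse (chr1:131638306-131675505, plus strand), an aspartic protease of gastric-type epithelium, was at 3.83, 2.56 and 2.10 TPM in KOA, 175, 203 and 244 TPM in KOB and 573, 602 and 589.9 TPM in WT. KOB lay between WT and KOA, which was near 0, and the difference was -5.78 ± 0.16 (SE, adjusted p = 1.01e-07). Tm4sf5 (chr11:70505244-70511178, plus strand), a tetraspanin-like surface protein of epithelial cells, was at 0.245, 0.358 and 1.16 TPM in KOA, 77.3, 75.8 and 103 TPM in KOB and 199, 211 and 199 TPM in WT. Tm4sf5 differed by -5.80 ± 0.20 (SE, adjusted p = 1.83e-07). Chymosin, Cym, a milk-clotting protease of the stomach, had a mean of 2.94 ± 1.14 TPM in KOA and 91.3 ± 15.7 TPM in KOB (SD, n = 3 each). Crisp1, a cysteine-rich secreted protein, stood at 12.1 ± 3.77 TPM and 273 ± 59.4 TPM in the same order.

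A few genes were high in every sample of one knockout, at 10 TPM or more, and under 0.5 TPM in every sample of the other. Those high in KOA were 6: Maob, Mug1, Otop1, Prl2c5, Prl6a1 and Speer4c. Maob (chrX:16709282-16817366, minus strand), a monoamine oxidase of the mitochondrial outer membrane, was at 10.5, 11.2 and 16.5 TPM in KOA, 0.296, 0.0423 and 0.375 TPM in KOB and 12, 12 and 10.2 TPM in WT, so the level of KOA was that of WT. Mug1, a secreted protease inhibitor, was at 41.8, 40.6 and 53.5 TPM in KOA, 0.215, 0.493 and 0.365 TPM in KOB and 0.0605, 0.0363 and 0.0925 TPM in WT, so WT and KOB were both near 0. The proton channel Otop1 was at 11.6, 14.5 and 14.1 TPM in KOA against 0.302, 0.251 and 0.0619 TPM in KOB. Prl2c5, Prl6a1 and Speer4c belong to families of close copies, so their values are uncertain.

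Those high in KOB were 4: Gabrp, Mfap4, Scara3 and Shisa6. Gabrp (chr11:33550781-33578959, minus strand), a subunit of the GABA-A receptor found in epithelia, was at 0.139, 0.242 and 0.117 TPM in KOA, 31.6, 34.4 and 38 TPM in KOB and 87.3, 115 and 84 TPM in WT. Scara3 (chr14:65919394-65953935, minus strand), a scavenger receptor-like protein, was at 0.375, 0.155 and 0.0561 TPM in KOA, 31.9, 32.5 and 34.7 TPM in KOB and 76.5, 76.8 and 76 TPM in WT. Both were highest in WT, and their differences between the knockouts were -4.93 ± 0.13 (SE, adjusted p = 8.51e-08) and -4.84 ± 0.10 (SE, adjusted p = 2.25e-08). The microfibril protein Mfap4 was at 0.137, 0.464 and 0.215 TPM in KOA against 12.3, 12.2 and 10.2 TPM in KOB. Shisa6, an auxiliary protein of glutamate receptors, was at 0.343, 0.311 and 0.377 TPM in KOA against 10.2, 13 and 17.9 TPM in KOB.

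**Figure D3:**
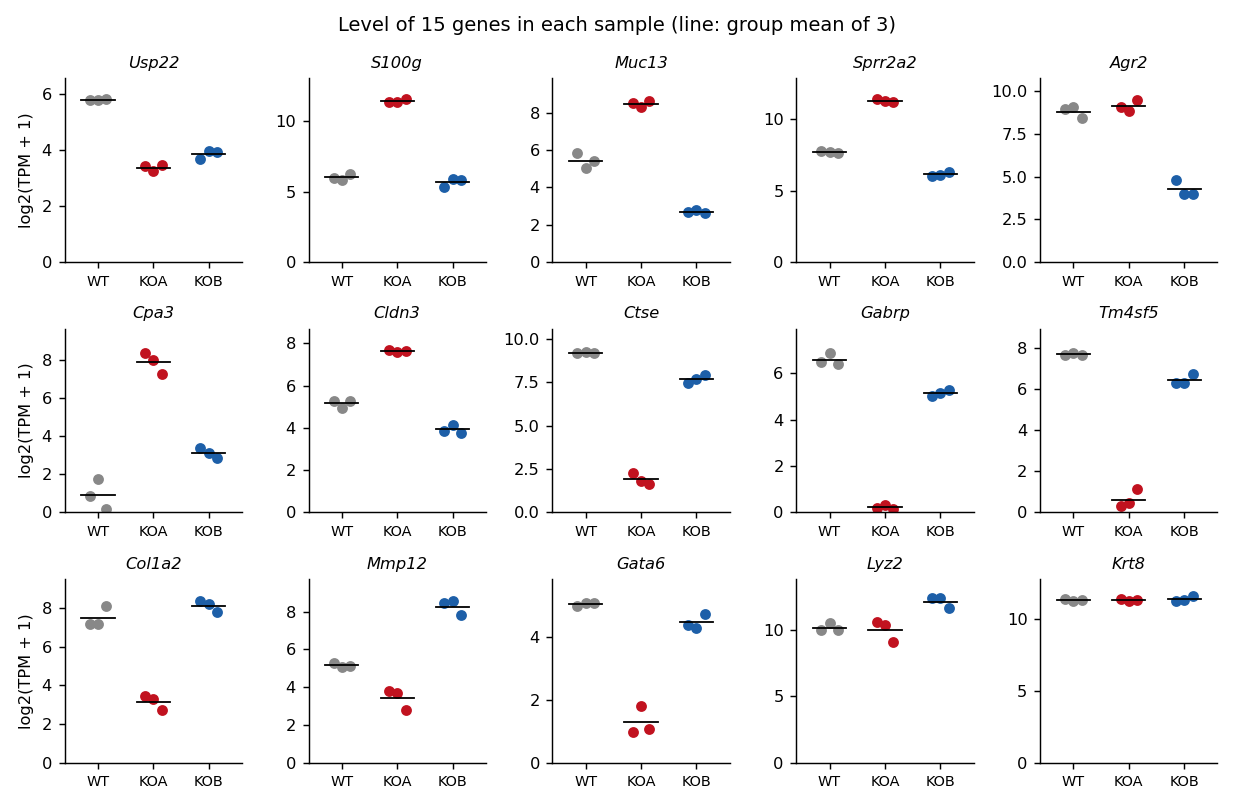
Log2(TPM + 1) of 15 genes in every sample (points) with the group mean of 3 (line), each axis starting at 0. S100g, Muc13, Sprr2a2, Agr2, Cpa3 and Cldn3 are higher in all 3 KOA samples, Ctse, Gabrp, Tm4sf5, Col1a2, Mmp12, Gata6 and Lyz2 in all 3 KOB samples, and the Krt8 values of the knockouts overlap.

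The gene lists below are to be read against all genes tested, of which 28.2% were higher in KOA and 23.9% higher in KOB, with a median of 0.03. Mucosal and gastric-type genes did not move as 1 group. Of these, 13 of 20 were higher in KOA and 5 higher in KOB (median log2 difference 1.52). Beside Muc13 and Agr2, the iron-siderophore-binding Lcn2 was higher in KOA, at 397, 396 and 482 TPM in KOA against 43.1, 57.3 and 53.3 TPM in KOB (log2 difference 3.03, adjusted p = 3.06e-07). The antimicrobial lectin Reg3g was at 41.7, 38.7 and 53.7 TPM in KOA against 1.32, 2.05 and 2.02 TPM in KOB (log2 difference 4.03, adjusted p = 4.16e-07). Beside Ctse, the annexin Anxa10, a marker of gastric-type epithelium, was higher in KOB, at 2.96, 3.23 and 3.84 TPM in KOA, 48.8, 47.4 and 53.8 TPM in KOB and 86, 70.5 and 86.5 TPM in WT (log2 difference -3.56, adjusted p = 1.27e-07). The trefoil factor Tff1, at 1.79, 8.16 and 6.21 TPM in KOA against 4.33, 2.40 and 3.74 TPM in KOB, was not called.

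Transcription factors of the pancreas and foregut were called in both directions: 7 of 22 were higher in KOA and 12 higher in KOB (median log2 difference -0.33). The median was 0.00 over members with a mean of at least 5 TPM. Gata6, a factor of foregut and classical-type pancreatic tumor cells, was at 0.976, 2.49 and 1.11 TPM in KOA, 19.6, 18.6 and 25.6 TPM in KOB and 30.8, 32.5 and 33.2 TPM in WT. KOB lay below WT, and KOA far below both. Gata6 differed by -3.18 ± 0.21 (SE, adjusted p = 4.51e-06). The intestinal factor Cdx2 (chr5:147300805-147307270, minus strand) was higher in KOA, at 68.1, 61.4 and 70.6 TPM in KOA, 19.6, 20.6 and 21 TPM in KOB and 27.4, 28.6 and 27.3 TPM in WT, by 1.66 ± 0.07 (SE, adjusted p = 3.18e-07). The homeobox factor Barx2 (chr9:31846044-31913462, minus strand) was at 139, 119.6 and 167 TPM in KOA, 6.56, 8.86 and 9.61 TPM in KOB and 14.7, 12 and 11.1 TPM in WT. Barx2 differed by 3.94 ± 0.16 (SE, adjusted p = 4.16e-07). Hoxa13, a homeobox gene of the hindgut and limb, was also higher in KOA (13.7, 15.3 and 21.9 TPM in KOA against 3.55, 2.55 and 3.46 TPM in KOB), and of 6 tested Hox genes 4 were higher there and none in KOB.

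Cell junction genes were higher in KOB more often: 6 of 29 were higher in KOA and 16 higher in KOB (median log2 difference -0.34). The tight junction protein Cldn3 (chr5:134986214-134987472, plus strand) was the exception by size, at 206, 193 and 197 TPM in KOA, 13.6, 16.7 and 12.5 TPM in KOB and 37.6, 29.4 and 37.7 TPM in WT. Cldn3 differed by 3.72 ± 0.12 (SE, adjusted p = 1.53e-07). The desmosomal cadherin Dsg2 was at 3.21, 3.31 and 4.24 TPM in KOA, 16.6, 17.9 and 21.1 TPM in KOB and 44.6, 39.1 and 43.3 TPM in WT, below WT in both knockouts and lowest in KOA (log2 difference -2.09, adjusted p = 1.85e-06). Keratins differed gene by gene: Krt7, of ductal epithelium, was at 155, 149 and 135 TPM in KOA against 599, 627 and 730.4 TPM in KOB (log2 difference -2.15, adjusted p = 2.76e-07). Krt19, also ductal, was at 2948, 2517 and 2977 TPM in KOA against 1735, 1841 and 2156 TPM in KOB (log2 difference 0.56, adjusted p = 0.000812). Prom1, a surface protein of progenitor-like epithelial cells, was at 389.6, 390.2 and 432 TPM in KOA, 56.1, 60.8 and 77.8 TPM in KOB and 411, 391 and 401 TPM in WT. Prom1 differed by 2.63 ± 0.11 (SE, adjusted p = 3.6e-07).

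Most called genes of the mesenchymal state and of the collagen matrix were lower in KOA. For mesenchymal transition genes, 5 of 29 were higher in KOA and 19 higher in KOB (median log2 difference -1.31). This list shares Fbn1, Fn1, Lox, Mmp2, Sparc and Tnc with the matrix lists below. Outside the runs 4 of its 23 members were called higher in KOA, and Vim, Cd44, Zeb1 and Foxc1 had the highest differences. Neural cadherin, Cdh2, was at 2.73, 3.08 and 3.11 TPM in KOA, 17.7, 19.2 and 23.5 TPM in KOB and 22.6, 21.9 and 19.2 TPM in WT (log2 difference -2.40, adjusted p = 8.3e-07). Vim, the main mesenchymal filament and named after its value was seen, was slightly higher in KOA, at 3167, 3099 and 2797 TPM in KOA against 2493, 2595 and 2802 TPM in KOB (log2 difference 0.20, adjusted p = 0.0273), with overlapping values.

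Of the collagens, 1 of 20 was higher in KOA and 14 higher in KOB (median log2 difference -2.02). Col1a2 (chr6:4504814-4541544, plus strand), a chain of type I collagen, was at 9.95, 8.71 and 5.68 TPM in KOA, 322, 293 and 223 TPM in KOB and 145, 141 and 269.8 TPM in WT. No values overlapped between the knockouts, and the difference was -4.96 ± 0.27 (SE, adjusted p = 1.84e-06). Col1a1 (chr11:94936224-94953042, plus strand), its partner chain, was at 19.5, 15.6 and 14.2 TPM in KOA, 386, 349 and 256 TPM in KOB and 182, 179 and 334 TPM in WT. Col1a1 differed by -4.24 ± 0.25 (SE, adjusted p = 2.6e-06). Serpinh1 (chr7:99345376-99353239, minus strand), the chaperone of collagen folding, was at 13.5, 15 and 13.4 TPM in KOA, 230.0, 236 and 236 TPM in KOB and 115, 124 and 163 TPM in WT, below WT in KOA and above it in KOB (log2 difference -3.97, adjusted p = 1.21e-07). Basement membrane collagen did not follow: Col4a1 was at 156, 174 and 145 TPM in KOA against 144, 147 and 156 TPM in KOB, with an interval of the difference of -0.07 to 0.24.

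For matrix glycoproteins and proteoglycans, 3 of 38 were higher in KOA and 27 higher in KOB (median log2 difference -1.38), and for matrix enzymes and their inhibitors, 6 of 39 were higher in KOA and 26 higher in KOB (median log2 difference -0.87). Periostin, Postn, was at 3.71, 2.68 and 1.88 TPM in KOA against 99.8, 94.9 and 79.8 TPM in KOB (log2 difference -4.64, adjusted p = 8.24e-07). The proteoglycan Bgn was at 9.76, 7.25 and 9.92 TPM in KOA against 149, 127 and 99.4 TPM in KOB (log2 difference -3.65, adjusted p = 4.19e-06). The macrophage elastase Mmp12 (chr9:7344381-7369499, plus strand) was at 13, 12 and 5.997 TPM in KOA, 349, 370.2 and 222 TPM in KOB and 38.3, 32.1 and 33.6 TPM in WT, so that KOA lay below WT and KOB above it. Mmp12 differed by -4.82 ± 0.27 (SE, adjusted p = 2.06e-06). An exception was the metalloprotease Adamts1, higher in KOA at 141, 142 and 169 TPM in KOA against 46.1, 51.7 and 59.2 TPM in KOB (log2 difference 1.51, adjusted p = 6.05e-06).

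These matrix genes can be made by tumor cells and by host fibroblasts, and in bulk samples fewer cells of a type and less RNA per cell cannot be told apart. Of the fibroblast markers, 1 of 18 was higher in KOA and 16 higher in KOB (median log2 difference -2.27), and the list contains Col1a1, Col1a2 and Postn named above. The summed level of the 20 listed markers was 328, 349.8 and 272 TPM in KOA, 1521, 1396 and 995 TPM in KOB and 633, 625 and 1106 TPM in WT, and only Tcf21 was listed at 0 in all 6 knockout samples. The part of fibroblasts in the matrix differences was not tested.

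Endothelial markers were also lower in KOA: 0 of 13 were higher in KOA and 12 higher in KOB (median log2 difference -1.42). Their sum was 37, 42.5 and 28.5 TPM in KOA, 196, 191 and 129 TPM in KOB and 114, 112 and 141 TPM in WT, so each KOA sample lay below every other sample. Lyve1, a hyaluronan receptor of lymphatic vessels and of some macrophages, was at 4.07, 6.33 and 3.47 TPM in KOA, 84.9, 85.8 and 42.1 TPM in KOB and 16.2, 24 and 22.4 TPM in WT (log2 difference -3.64, adjusted p = 1.5e-05). Plvap, of fenestrated vessels, was at 3.29, 3.51 and 1.88 TPM in KOA against 19.4, 17.4 and 11.8 TPM in KOB (log2 difference -2.15, adjusted p = 8.82e-05). Pericyte and smooth muscle markers had 5 of 7 higher in KOB, among them smooth muscle actin, Acta2, at 5.04, 5.16 and 3.79 TPM in KOA against 25.7, 22.5 and 19.9 TPM in KOB (log2 difference -2.07, adjusted p = 3.74e-06).

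Leukocyte markers differed by kind of cell. Of pan-leukocyte markers, 0 of 18 were higher in KOA and 9 higher in KOB (median log2 difference -0.80), and of macrophage and monocyte markers, 2 of 25 were higher in KOA and 19 higher in KOB (median log2 difference -1.42). The summed macrophage and monocyte level was 6441, 5393 and 2800.0 TPM in KOA, 17387, 16839.6 and 9581 TPM in KOB and 3959, 6122 and 4237 TPM in WT, so KOB stood above the other groups. Csf1r, the receptor for the macrophage growth factor, was at 51.5, 40.8 and 23.8 TPM in KOA, 202, 197 and 105 TPM in KOB and 42.9, 65.8 and 38.9 TPM in WT (log2 difference -2.09, adjusted p = 0.000832). The scavenger receptor Cd163 was at 4.93, 5.72 and 2.06 TPM in KOA, 55.8, 54.6 and 29.1 TPM in KOB and 11.5, 23 and 13.2 TPM in WT (log2 difference -3.20, adjusted p = 0.000123). Retnla, a secreted protein of alternatively activated macrophages, was at 117, 123 and 42.3 TPM in KOA, 1496, 1342 and 789.6 TPM in KOB and 145, 294 and 59.2 TPM in WT (log2 difference -3.76, adjusted p = 0.000702). Replicate 3 had the lowest sum of pan-leukocyte, macrophage, neutrophil, mast cell, T cell and NK markers in both knockouts. The part of these cells in the differences above was not tested. Without replicate 3 of both knockouts, chosen after this was seen, the macrophage list had 2 higher in KOA and 21 higher in KOB.

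**Figure D4:**
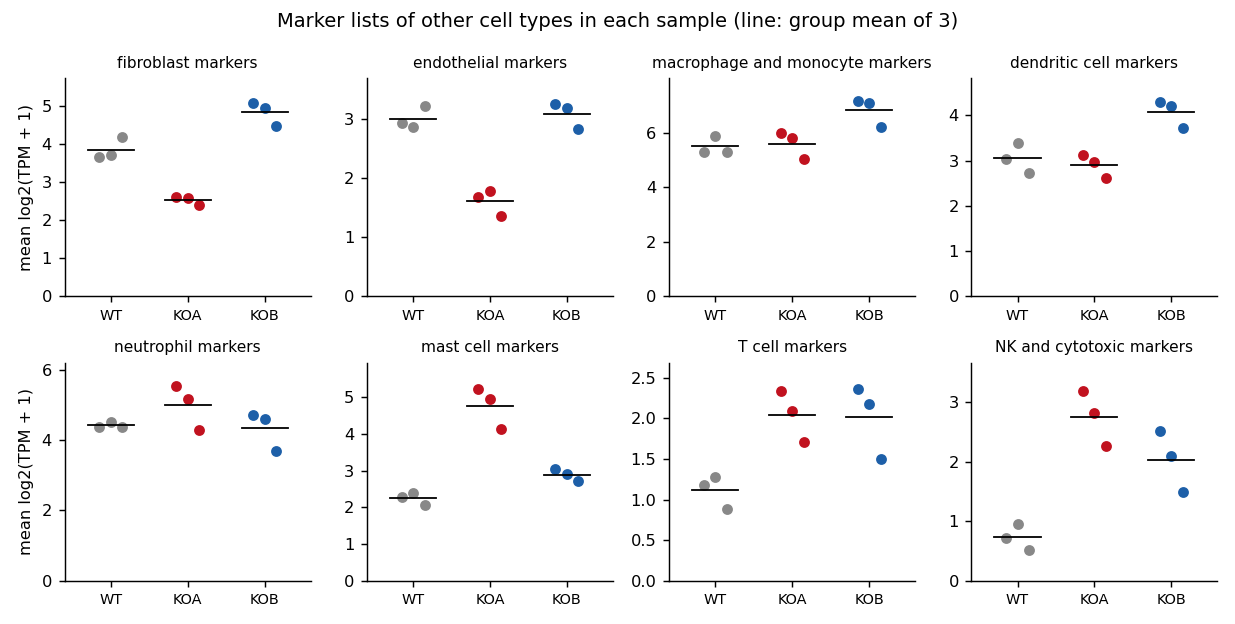
Mean log2(TPM + 1) over the tested members of 8 marker lists in every sample (points), with the group mean of 3 (line) and axes starting at 0. Fibroblast, endothelial, macrophage and dendritic cell lists are higher in all 3 KOB samples, the mast cell list in all 3 KOA samples, and the neutrophil, T cell and NK lists overlap between the knockouts.

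Most mast cell markers, though not all, were higher in KOA. Of the mast cell markers, 14 of 18 were higher in KOA and 2 higher in KOB (median log2 difference 2.28), and their sum was 2783, 2226 and 1289.5 TPM in KOA, 499, 508 and 468 TPM in KOB and 722, 706 and 593 TPM in WT. In WT most of this sum came from the mast cell and basophil proteases Mcpt1, Mcpt2, Mcpt4 and Mcpt8, with means of 120.4, 333, 160.4 and 44.7 TPM. Cpa3 (chr3:20215620-20242181, minus strand), the mast cell carboxypeptidase, was at 330.2, 260.5 and 155 TPM in KOA, 9.56, 7.80 and 6.16 TPM in KOB and 0.834, 2.42 and 0.117 TPM in WT. The KOA samples varied about 2-fold among themselves and still lay above all others. Cpa3 differed by 4.77 ± 0.40 (SE, adjusted p = 1.85e-05). Cma1, a chymase, was at 654, 506 and 331 TPM in KOA, 18.7, 11.4 and 9.63 TPM in KOB and 1.32, 2.42 and 0.851 TPM in WT (log2 difference 5.13, adjusted p = 3.53e-06). The tryptase Tpsb2 was at 741, 601 and 337 TPM in KOA, 32.9, 28.9 and 18.2 TPM in KOB and 1.77, 2.62 and 0.768 TPM in WT (log2 difference 4.31, adjusted p = 1.57e-05). The high-affinity IgE receptor chain Fcer1a was at 59.1, 47.7 and 29.3 TPM in KOA, 3.02, 1.22 and 2.41 TPM in KOB and 0.240, 0.524 and 0.463 TPM in WT (log2 difference 3.84, adjusted p = 8.48e-06). Of the 2 members higher in KOB, 1 was Mcpt8, a protease of basophils, at 5.51, 4.50 and 6.29 TPM in KOA, 62.9, 69.6 and 61.9 TPM in KOB and 46.9, 49.8 and 37.5 TPM in WT (log2 difference -3.36, adjusted p = 3.06e-07). Of the 13 members outside the runs, 9 were higher in KOA, and both members higher in KOB were among these 13. After Mcpt8, the mast cell proteases Mcpt1 and Mcpt2 had the next lowest differences there, so they did not follow Cpa3 and Cma1 in size. Kitl, the ligand of Kit, was at 49.4, 56.2 and 53.9 TPM in KOA against 33.7, 36.7 and 42.6 TPM in KOB (log2 difference 0.49, adjusted p = 0.00232).

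The promoter of Cpa3 is shown because its marker list often held the letters AGATAA, a motif of GATA factors. On either strand, in the 250 bases before the start, AGATAA was in 5 of the 15 mast cell markers with a promoter in RefSeq, build GRCm38.p6 (33.3%). It was in 7.44% of the 10360 tested genes with such a promoter. A match is a description, not a site. The 250 bases before the RefSeq start (chr3:20242182-20242431, minus strand) follow, with AGATAA in capitals.
Cpa3: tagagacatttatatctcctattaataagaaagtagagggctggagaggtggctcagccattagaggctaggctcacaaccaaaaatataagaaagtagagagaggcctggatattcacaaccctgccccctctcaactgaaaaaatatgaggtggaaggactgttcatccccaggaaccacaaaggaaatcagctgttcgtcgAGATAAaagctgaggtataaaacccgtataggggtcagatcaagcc

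Other leukocyte lists were mixed. Of neutrophil markers, 6 of 11 were higher in KOA and 2 higher in KOB (median log2 difference 1.15). These counts were 6 higher in KOA and 4 higher in KOB without replicate 3 of both knockouts. The surface marker Ly6g was at 19.5, 19.3 and 23.7 TPM in KOA against 0.503, 0 and 0.560 TPM in KOB (log2 difference 4.03, adjusted p = 8.45e-07). The alarmin S100a8 was at 865, 611 and 317 TPM in KOA against 205, 195 and 48.4 TPM in KOB (log2 difference 2.13, adjusted p = 0.00907). Of dendritic cell markers 8 of 12 were higher in KOB and none in KOA, with a median of -0.74. Of 19 tested T cell markers 2 were called, both higher in KOB. The factor Tcf7, which epithelial cells can also express, was at 2.92, 3.38 and 1.78 TPM in KOA against 11.8, 12.4 and 13.9 TPM in KOB. The receptor Il7r was at 3.25, 3.08 and 1.06 TPM in KOA against 8.88, 8.86 and 5.21 TPM in KOB. The T cell receptor component Cd3e, a defining marker, was at 7.07, 6.08 and 5.21 TPM in KOA against 7.30, 4.86 and 1.39 TPM in KOB, with a 95% interval of the difference of -0.33 to 1.41. Of 12 NK and cytotoxic markers, 5 were higher in KOA and none in KOB. The granule protease Gzmb was at 30.9, 23.1 and 7.39 TPM in KOA against 8.71, 4.71 and 3.62 TPM in KOB, lowest in replicate 3 of each knockout (log2 difference 1.55, adjusted p = 0.0248).

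Eosinophil markers and type 2 genes had 2 of 16 higher in KOA and 8 higher in KOB. The eosinophil chemokine Ccl11 was at 0.107, 0.521 and 0.562 TPM in KOA against 11.9, 13.9 and 7.01 TPM in KOB (log2 difference -3.07, adjusted p = 1.25e-05). Of 5 tested erythroid markers, 3 were higher in KOB, and 5 without replicate 3 of both knockouts. The globin gene Hba-a1 has a near-identical copy and was at 0, 0 and 47.7 TPM in KOA against 166, 96.6 and 176 TPM in KOB, so its call (adjusted p = 0.0497) is uncertain. Of the adipocyte, skeletal muscle, skin keratinocyte and nerve lists, 5, 4, 3 and 4 members passed the filter, and 3, 1, 0 and 3 were higher in KOB against 1, 1, 1 and 0 in KOA. B and plasma cell markers had 2 of 6 higher in KOA and none in KOB.

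Chemokines and complement were mixed. CC chemokines had 2 of 18 higher in KOA and 7 higher in KOB, and CXC and CX3C chemokines 4 and 8 of 16. Of the CXC and CX3C genes, 11 lay in runs higher in KOA, Cxcl5 among them, with 4 higher in KOA and 4 higher in KOB. Over all genes in those runs, 61.1% were higher in KOA and 11.2% higher in KOB. Ccl9, a chemokine of myeloid cells, was at 74.5, 64.1 and 25.1 TPM in KOA against 293, 306 and 168 TPM in KOB (log2 difference -2.30, adjusted p = 0.00125). Cxcl5, a neutrophil-attracting chemokine of epithelia, was higher in KOA, at 333, 316 and 408 TPM in KOA against 98.5, 113 and 131 TPM in KOB (log2 difference 1.62, adjusted p = 9.97e-06). Cxcl14, an epithelial and stromal chemokine, was higher in KOB, at 2.17, 1.37 and 1.14 TPM in KOA against 57, 49 and 27.9 TPM in KOB (log2 difference -4.12, adjusted p = 6.58e-06). Of complement genes, 6 of 19 were higher in KOA and 12 higher in KOB (median log2 difference -1.40). The central component C3 (chr17:57203970-57228136, minus strand) was at 1622, 1514 and 1759.9 TPM in KOA, 460.1, 435 and 518 TPM in KOB and 366, 350.2 and 345 TPM in WT, higher in KOA by 1.79 ± 0.07 (SE, adjusted p = 4.27e-07). The complement inhibitor Cfi (chr3:129835884-129875332, plus strand) was at 0.467, 1.09 and 0.196 TPM in KOA, 15, 20.8 and 21.8 TPM in KOB and 198, 218 and 196 TPM in WT. Cfi differed by -3.69 ± 0.20 (SE, adjusted p = 1.69e-06), with WT far above both. Clusterin, Clu, was at 1299.6, 1463 and 1133 TPM in KOA, 3813, 4055 and 4483 TPM in KOB and 8307, 8293 and 8307 TPM in WT (log2 difference -1.67, adjusted p = 1.74e-06).

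In antigen presentation by MHC class I, the proteasome makes peptides that TAP carries to class I molecules for display to T cells. Most genes of this list were higher in KOA: 17 of 23 were higher in KOA and 1 higher in KOB (median log2 difference 0.49). The class I heavy chain H2-K1 (chr17:33996017-34000347, minus strand) was at 6165, 5768 and 6370.5 TPM in KOA, 3293, 2993 and 3435 TPM in KOB and 416, 688 and 357 TPM in WT; both knockouts lay above WT and no values overlapped. H2-K1 differed by 0.91 ± 0.20 (SE, adjusted p = 0.00453). The peptide-loading chaperone Calr was at 993, 985 and 909 TPM in KOA, 649, 662 and 674 TPM in KOB and 806, 812 and 795 TPM in WT (log2 difference 0.54, adjusted p = 1.69e-05). The loading factor Tapbp was at 332, 318 and 357 TPM in KOA against 238, 233 and 243 TPM in KOB (log2 difference 0.49, adjusted p = 0.000198). B2m, the light chain, was at 7449, 7646 and 7981 TPM in KOA against 5266, 5033 and 5136 TPM in KOB (log2 difference 0.58, adjusted p = 0.00885). Tap1, a peptide transporter subunit, was at 149, 149 and 151 TPM in KOA against 90.5, 89.9 and 92.4 TPM in KOB (log2 difference 0.71, adjusted p = 0.0243). Without replicate 3 of both knockouts the list had 12 higher in KOA and 0 higher in KOB. Class I genes are near-identical copies, so the split of reads among H2-K1, H2-D1 and the H2-Q genes is uncertain.

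Interferon-stimulated genes leaned the same way: 29 of 53 were higher in KOA and 1 higher in KOB (median log2 difference 0.41). The tryptophan-degrading enzyme Ido1 (chr8:24584136-24597009, minus strand) was at 204, 229 and 212 TPM in KOA, 35.9, 37.1 and 26.3 TPM in KOB and 2.05, 0.9997 and 0.198 TPM in WT. Ido1 had the largest of these differences, 2.68 ± 0.29 (SE, adjusted p = 8.13e-05). Irgm2, an interferon-induced GTPase, was at 56.8, 67.6 and 72.5 TPM in KOA, 32.6, 32.1 and 32.8 TPM in KOB and 9.13, 11.7 and 7.30 TPM in WT (log2 difference 0.99, adjusted p = 0.000512). The deubiquitinase-like Usp18 was at 34.2, 35.9 and 38.6 TPM in KOA, 18.7, 23.5 and 20.3 TPM in KOB and 5.77, 7.94 and 5.98 TPM in WT (log2 difference 0.78, adjusted p = 0.000762). Ifi27l2a was the member higher in KOB, at 139, 124 and 101 TPM in KOA, 643, 562 and 268 TPM in KOB and 157, 255 and 165 TPM in WT (log2 difference -1.92, adjusted p = 0.000947). Without replicate 3 of both knockouts the counts were 18 higher in KOA and 2 higher in KOB. Interferon receptor genes, with their kinases and ligands, had 7 of 10 higher in KOA and 1 higher in KOB, the kinase Jak2. Of the 7, 4 lay in runs higher in KOA (Ifnar1, Ifnar2, Il10rb and Ifngr2), where 61.1% of all genes were higher in KOA. Outside the runs, 3 of 6 were higher in KOA, against 29.4% of all genes there. The interferon gamma receptor chain Ifngr2 was at 273, 261 and 291 TPM in KOA against 149, 164 and 173 TPM in KOB (log2 difference 0.76, adjusted p = 2.29e-05).

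MHC class II genes, made mainly by macrophages, dendritic cells and B cells, gave 0 calls of 9 in limma, with a median of -0.49. The invariant chain Cd74 was at 1298, 1192 and 1146 TPM in KOA, 2962, 2339.9 and 1705 TPM in KOB and 456, 850.2 and 252 TPM in WT; the knockouts did not overlap, yet the adjusted p was 0.0686 and the interval -1.76 to -0.06. At an unadjusted p under 0.05, 1 of the 9 passed. Of 22 checkpoint and co-stimulatory ligands, 4 were higher in KOA and 10 higher in KOB. The phagocytosis checkpoint Cd47 was higher in KOA, at 319, 357 and 379 TPM in KOA, 184, 187 and 205 TPM in KOB and 174, 163 and 167 TPM in WT (log2 difference 0.87, adjusted p = 1.55e-05). The adhesion ligand Nectin2 was higher in KOB, at 37.6, 34.7 and 39.7 TPM in KOA against 64.3, 66.1 and 79.7 TPM in KOB (log2 difference -0.89, adjusted p = 4.88e-05).

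The promoter of B2m is shown because it holds the interferon-stimulated response element, searched on both strands as GAAA, any 2 bases and GAAA. These letters were in the 250 bases before the start of 3 of 18 class I genes matched in RefSeq (16.7%) and of 3.43% of tested genes with a promoter. The sequence is chr2:122147437-122147686, plus strand, from RefSeq on GRCm38.p6, with the match in capitals.
B2m: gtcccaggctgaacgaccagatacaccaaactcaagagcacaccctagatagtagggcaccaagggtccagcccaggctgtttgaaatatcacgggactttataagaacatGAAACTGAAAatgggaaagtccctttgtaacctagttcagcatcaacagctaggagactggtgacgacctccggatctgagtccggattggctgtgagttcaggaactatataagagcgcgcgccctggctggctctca

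Proteasome subunits, which degrade ubiquitin-tagged proteins, were higher in KOA by small amounts: 21 of 28 were higher in KOA and 0 higher in KOB (median log2 difference 0.28), against 28.2% of all genes in that direction. The core subunit Psmb4 was at 593, 573 and 585 TPM in KOA against 408, 418 and 417 TPM in KOB (log2 difference 0.49, adjusted p = 8.96e-06). Of endoplasmic reticulum chaperones, 11 of 20 were higher in KOA and 1 higher in KOB (median log2 difference 0.22). The list of cytosolic chaperones, which also holds 2 mitochondrial chaperonins, had 1 of 15 higher in KOA, Hspb8, and 7 higher in KOB. Among the 7 was the mitochondrial pair Hspd1 (169, 164 and 160.1 TPM in KOA against 235, 238 and 272 TPM in KOB) and Hspe1, which share a promoter region on chromosome 1. Both lie in runs higher in KOB, where 58.3% of all genes were higher in KOB. Outside the runs, 5 of 11 members were higher in KOB, against 18.2% of all genes.

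Genes of cholesterol synthesis, the pathway from acetyl-CoA to sterols that the factor Srebf2 drives when sterol is low, were mostly lower in KOA: 2 of 22 were higher in KOA and 17 higher in KOB (median log2 difference -0.82). The sterol sensor partner Insig1 (chr5:28071363-28078662, plus strand) was at 12.1, 11.4 and 9.83 TPM in KOA, 45.8, 49.9 and 55.1 TPM in KOB and 37.1, 35.7 and 39 TPM in WT; KOB lay above WT and KOA below it. Insig1 differed by -2.08 ± 0.09 (SE, adjusted p = 6.42e-07). The epoxidase Sqle was at 17.4, 16.6 and 17.6 TPM in KOA, 47.4, 48.1 and 58.4 TPM in KOB and 43.6, 36.7 and 40.6 TPM in WT (log2 difference -1.52, adjusted p = 3.4e-06). The isomerase Idi1 was at 11.3, 11.3 and 9.80 TPM in KOA, 31.8, 32.3 and 38.1 TPM in KOB and 28.2, 24.1 and 23.9 TPM in WT (log2 difference -1.57, adjusted p = 4.02e-06). Outside the chromosome runs, 14 of 18 members were higher in KOB, with a median of -0.83, against 18.2% of all genes there and a median of 0.08.

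The promoter of Hmgcs1, the first committed enzyme of the pathway, at 26.9, 26.6 and 31.3 TPM in KOA against 56, 59.1 and 66.2 TPM in KOB (log2 difference -1.07, adjusted p = 1.94e-05), is shown because it alone of the 14 matched pathway genes (7.14%) held the letters TCACNCCAC of the sterol regulatory element. Both strands of the 250 bases before the start were searched, and 1.20% of tested genes held them. The sequence is chr13:119690101-119690350, plus strand, from RefSeq on GRCm38.p6, with the match in capitals. GENCODE places the start of its transcripts further downstream.
Hmgcs1: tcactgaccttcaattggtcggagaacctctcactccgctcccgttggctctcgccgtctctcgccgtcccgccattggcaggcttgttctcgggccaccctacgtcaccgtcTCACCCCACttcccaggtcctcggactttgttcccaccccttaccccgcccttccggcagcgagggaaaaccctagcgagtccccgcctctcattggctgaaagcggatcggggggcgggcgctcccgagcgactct

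Fatty acid genes were more mixed: 4 of 24 were higher in KOA and 14 higher in KOB (median log2 difference -0.42). The desaturase Fads1 on chromosome 19 was at 11.8, 11.9 and 8.88 TPM in KOA against 33.7, 38.3 and 37.4 TPM in KOB (log2 difference -1.67, adjusted p = 3.74e-06). Its neighbour Fads2, also a desaturase, was at 15.8, 20.9 and 20.3 TPM in KOA against 63.3, 62.2 and 76.8 TPM in KOB (log2 difference -1.78, adjusted p = 4.51e-06). Scd1, a desaturase on the same chromosome, went the other way, at 35.1, 37.7 and 38.4 TPM in KOA against 15.4, 14.9 and 18.1 TPM in KOB (log2 difference 1.16, adjusted p = 8.29e-06). Its paralog Scd2 beside it was at 76.2, 83.3 and 69.9 TPM in KOA against 162, 165 and 198 TPM in KOB (log2 difference -1.18, adjusted p = 1.22e-05). Of 24 antioxidant genes of the NRF2 response, 10 were higher in KOA and 6 higher in KOB. The quinone reductase Nqo1 was at 40.8, 32.7 and 51.4 TPM in KOA against 5.56, 4.84 and 5.54 TPM in KOB (log2 difference 2.73, adjusted p = 1.43e-06). In the amino acid response, 10 of 26 were higher in KOA and 7 in KOB; asparagine synthetase, Asns, was at 77.4, 80.6 and 72.5 TPM in KOA against 29.6, 29.1 and 29.2 TPM in KOB (log2 difference 1.36, adjusted p = 2.29e-05).

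Hypoxia response genes were called in 1 direction only: 0 of 24 were higher in KOA and 17 higher in KOB (median log2 difference -0.42). Carbonic anhydrase Car9 (chr4:43506966-43513729, plus strand) was at 12.3, 14.1 and 19.3 TPM in KOA, 52.1, 55.5 and 61.3 TPM in KOB and 79, 73.3 and 78.6 TPM in WT. Car9 differed by -1.84 ± 0.14 (SE, adjusted p = 1.02e-05). The mitophagy receptor Bnip3 was at 48.9, 50.6 and 44.2 TPM in KOA, 99.1, 115 and 112 TPM in KOB and 113, 95.2 and 126 TPM in WT (log2 difference -1.16, adjusted p = 2.76e-05). The vasodilator peptide Adm was at 0.306, 0.892 and 0.534 TPM in KOA, 8.03, 9.49 and 4.79 TPM in KOB and 26.7, 23.5 and 22.4 TPM in WT (log2 difference -2.39, adjusted p = 3.33e-05). Without replicate 3 of both knockouts the list had 1 higher in KOA and 13 higher in KOB. Glycolysis enzymes had 11 of 20 higher in KOB and 4 higher in KOA; Aldoc was at 11.9, 11 and 12.6 TPM in KOA against 29.6, 26.4 and 35.4 TPM in KOB (log2 difference -1.28, adjusted p = 1.46e-05).

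The promoter of Car9 is shown because it holds the hypoxia response core ACGTG on the reverse strand, written CACGT here, 18 bases before the RefSeq start. By the GENCODE coordinates above, which begin further upstream, the match lies inside the gene. ACGTG is in the 250 bases before the start of 13 of 19 matched hypoxia genes (68.4%) and of 24.2% of tested genes, on either strand. The sequence is chr4:43506776-43507025, plus strand, from RefSeq on GRCm38.p6, with the match in capitals.
Car9: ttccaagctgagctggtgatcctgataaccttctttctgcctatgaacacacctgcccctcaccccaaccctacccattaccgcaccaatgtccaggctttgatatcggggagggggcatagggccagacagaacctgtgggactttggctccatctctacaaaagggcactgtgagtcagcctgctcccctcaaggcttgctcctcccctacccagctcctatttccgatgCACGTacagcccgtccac

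**Figure D5:**
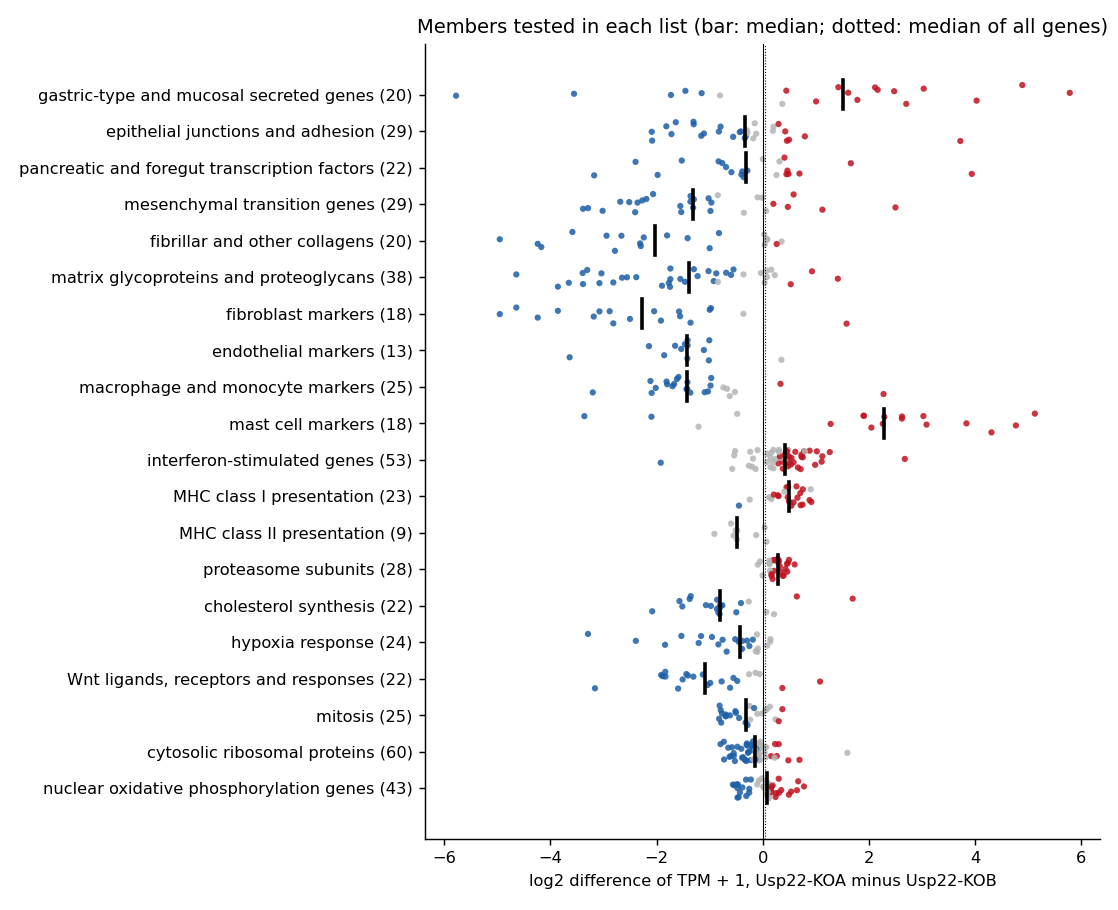
Log2 difference (KOA minus KOB) of every tested member of 20 gene lists (points; red and blue are called higher in KOA and KOB, grey is not called), with the list median (bar) and the median of all genes (dotted line). Collagen, fibroblast and endothelial lists lie to the left, mast cell genes to the right, and class I and proteasome genes lie slightly right of 0.

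Some signalling lists were mostly higher in KOB where they were called, such as the Wnt, YAP-TEAD and Hedgehog lists. Others were called about evenly, such as the TGF-beta and EGF lists, and NF-kB targets had 8 of 27 higher in each knockout. For Wnt ligands, receptors and responses, 2 of 22 were higher in KOA and 17 higher in KOB (median log2 difference -1.08). The secreted Wnt modulator Sfrp2 was at 0.732, 0.0944 and 0.358 TPM in KOA against 12.8, 13.9 and 8.02 TPM in KOB (log2 difference -3.16, adjusted p = 1.37e-05). YAP-TEAD targets, which respond to cell shape and stiffness, had 15 of 26 higher in KOB and 1 higher in KOA, the coactivator gene Yap1. All 6 members in runs higher in KOB were higher in KOB, against 58.3% of all genes there. Outside the runs 7 of 18 were, against 18.2% of all genes. Cyr61, a secreted target of this pathway, was at 22.3, 21.5 and 19.7 TPM in KOA, 54, 62.5 and 58.1 TPM in KOB and 190.3, 171 and 191 TPM in WT (log2 difference -1.42, adjusted p = 1.5e-06), lowest in KOA and below WT in both.

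Of the TGF-beta and BMP genes, 12 of 32 were higher in KOA and 14 in KOB. All 6 members in runs higher in KOB were called that way. Outside the runs, 10 of 23 were higher in KOA and 7 in KOB, with a median of 0.07. The BMP-responsive Id1 was at 144, 150.5 and 151 TPM in KOA against 73.4, 73.7 and 76.1 TPM in KOB (log2 difference 0.99, adjusted p = 8.24e-07). Hedgehog genes had 5 of 7 higher in KOB, among them the transducer Smo, at 2.76, 2.77 and 3.13 TPM in KOA against 11, 10.7 and 12.4 TPM in KOB (log2 difference -1.67, adjusted p = 1.48e-06). In the FGF and PDGF group, 12 of 21 were higher in KOB; the receptor Fgfr1 was at 3.17, 2.73 and 1.83 TPM in KOA, 24, 23.1 and 14.6 TPM in KOB and 6.91, 8.57 and 8.11 TPM in WT (log2 difference -2.58, adjusted p = 1.35e-05). The ligand Pdgfb was at 6.70, 6.01 and 7.51 TPM in KOA against 32.4, 33.3 and 34.6 TPM in KOB (log2 difference -2.16, adjusted p = 3.06e-07). Of 12 EGF family genes, 4 were higher in KOA and 5 higher in KOB. Ereg, an EGF receptor ligand, was at 17.5, 19.1 and 21.5 TPM in KOA against 7.29, 7.59 and 8.05 TPM in KOB (log2 difference 1.23, adjusted p = 1.33e-05). The receptor Egfr was at 3.96, 3.87 and 5.28 TPM in KOA against 11, 11.7 and 14.3 TPM in KOB (log2 difference -1.31, adjusted p = 5.45e-05). Immediate early genes had 14 of 25 and RAS-MAPK feedback genes 11 of 18 higher in KOB, with 4 higher in KOA in each. The feedback genes had 4 higher in KOA and 7 higher in KOB without replicate 3 of both knockouts.

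Called mitosis genes were mostly higher in KOB, by under 2-fold: 2 of 25 were higher in KOA and 15 higher in KOB (median log2 difference -0.33). The spindle checkpoint kinase Bub1b was at 15.1, 16.6 and 16.3 TPM in KOA against 27.4, 28.6 and 31.1 TPM in KOB (log2 difference -0.82, adjusted p = 4.1e-05). The proliferation marker Mki67 was at 15.5, 16.8 and 16.4 TPM in KOA, 27.2, 28.7 and 32.1 TPM in KOB and 26.5, 30.9 and 24.7 TPM in WT (log2 difference -0.81, adjusted p = 0.000126). Of 25 DNA replication genes, 8 were higher in KOB and 2 in KOA. The helicase subunit Mcm3 on chromosome 1 was at 17.9, 19.7 and 15 TPM in KOA against 31.5, 33.9 and 33.5 TPM in KOB (log2 difference -0.88, adjusted p = 6.36e-05). Mcm6, of the same helicase and chromosome, was at 29.8, 31.4 and 25.7 TPM in KOA against 48.6, 47.9 and 51.8 TPM in KOB (log2 difference -0.76, adjusted p = 5.29e-05). Of pancreatic cancer drivers and cell-cycle brakes, 9 of 26 were higher in each knockout. The cyclin Ccnd1 was at 113, 129 and 111 TPM in KOA against 212, 219 and 258 TPM in KOB (log2 difference -0.95, adjusted p = 2.44e-05). Ccnd3 was at 143, 133 and 131 TPM in KOA against 85.3, 82 and 85.9 TPM in KOB (log2 difference 0.68, adjusted p = 2.23e-05). Trp53 was at 96.4, 102 and 87.9 TPM in KOA against 106, 107 and 115 TPM in KOB (log2 difference -0.19, adjusted p = 0.0488).

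Many genes were close in the 2 knockouts. The 95% interval of the difference lay within 0.5 on the log2 scale on both sides of 0 for 5568 genes (40.9%) and within 1 for 10313 (75.7%); 1372 of the former were called all the same. Within 0.5 and not called was the chromatin remodeller Arid1a, at 33.2, 34 and 37.1 TPM in KOA against 31.3, 31.4 and 39.2 TPM in KOB, with an interval of -0.18 to 0.25. The mitotic kinase Aurka was at 24.3, 24 and 22.7 TPM in KOA against 23.2, 23.6 and 24.6 TPM in KOB, with an interval of -0.17 to 0.15. Of the p53 targets, 6 of 24 were higher in KOA and 9 in KOB.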

How the data were processed

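Tumor RNA of 9 samples was analysed from 1 deposited table of TPM values per gene, which the authors scaled so that each sample sums to 1e+06. Salmon, DESeq2 and mm10 are named in the submitters' processing notes, without versions. TPM keeps no read counts, so no count test was run.

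Differences were fitted with limma 3.58.1 in R 4.3.3 on log2(TPM + 1), with 3 group means over all 9 samples, an intensity trend and Benjamini-Hochberg adjustment over the 13623 genes averaging 1 TPM or more in the 6 knockout samples. On simulated data for this comparison, over 13623 genes, limma recovered 87 of 100 genes given a log2 change of 1 and 63 of 100 given one of 0.5, with 10 false among 160 calls. The members and gene lists were chosen with earlier results of these data known.

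Genes named are Usp22, the 20 largest non-overlapping differences each way with a mean of at least 5 TPM (predicted models passed over), genes near 0 in 1 knockout, and in each list the 4 calls with the smallest adjusted p, the largest, and members with the narrowest intervals where a list is close. Atp5j, B2m, Cd3e, Cd74, Cox5b, Epcam, Hmgcs1, Mcpt1, Mcpt2, Ptprc, Reg3g, Tap1, Tff1, Trp53 and Vim were chosen after their values were seen or to check a label. Gene coordinates are from GENCODE M21 on GRCm38 (mm10), and promoters from RefSeq GRCm38.p6. Alternatives were other pseudocounts, filters, scalings, weights, a replicate block and leaving out each sample.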

Additional observations from a re-analysis of the deposited data

How the results depend on the processing

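No called gene and no count of calls turned its direction under the settings tried. The median of 15 of the 72 gene lists changed sign under at least 1 setting, among them the p53 targets (0.01, and -0.05 without replicate 3 of both knockouts), the TGF-beta and BMP genes (-0.03 and 0.07) and skin keratinocyte markers (-0.35 and 0.13). The median over all genes was 0.03, and -0.01 with no filter. Usp22 was lower in KOA under all of them, and every call shared with the main analysis kept its sign. The total of 7085 calls ranged from 5974 (mean of at least 5 TPM) to 8678 (array weights, whose estimation did not fully converge) over settings that keep all samples. KOA's share of calls ran from 51.2% to 58.1%. Genes called and at least 2-fold higher in Usp22-KOB numbered 612 with a mean of at least 5 TPM. With a pseudocount of 5, 372 genes were called and at least 2-fold higher in Usp22-KOA and 500 were called and at least 2-fold higher in Usp22-KOB, and the medians were -0.27 on chromosome 1, -0.23 on 15 and -0.27 on 19. With no filter, genes close between the knockouts (interval within 0.5) numbered 9363. At limits of 5 and 1 TPM, 35 genes were high in KOA and near 0 in KOB, and 45 the reverse. Without replicate 3 of both knockouts, chosen after the data were seen, 6837 genes were called and the chromosome 19 median was -0.30. Counts of calls moved under at least 1 setting for at least 55 of the 72 lists. Without replicate 3 of both knockouts, the SAGA deubiquitinase module had 1 gene higher in each knockout, and T cell markers had 1 higher in KOA. Windows of 100 genes had a highest median of 0.65. Of 369 named genes, 16 lost their call under at least 1 setting.

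Leaving out 1 sample at a time gave 5863 to 7345 calls in all, 3142 to 4221 higher in KOA and 2721 to 3139 higher in KOB. Those at least 2-fold apart numbered 584 to 674 higher in KOA and 912 to 1098 higher in KOB. Close genes numbered 4761 to 5461, Usp22 differed by -0.57 to -0.41, and chromosome medians were -0.39 to -0.32 (1), -0.33 to -0.26 (15) and -0.37 to -0.30 (19). With the replicate number as a block, genes called higher in Usp22-KOA numbered 3641 and genes called higher in Usp22-KOB numbered 3227, of 6868 in all. Deviations of same-numbered KOA and KOB samples from their group means correlated at 0.19, 0.088 and 0.28 across genes. KOA replicates 1, 2 and 3 each matched the KOB sample of the same number best. KOB replicates 1 and 3 also matched their own number best, while KOB replicate 2 matched KOA replicate 1 best. Whether same-numbered samples share more than a number was not tested. Read depth is unknown, so counting error at low TPM cannot be given.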
